A study of Homo sapiens with 6 samples.

Results

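The genes described here are 38 human genes of mismatch repair, base excision repair, nucleotide excision repair and non-homologous end joining, taken from a list of symbols: 5, 16, 9 and 8 genes in that order. All 38 were among the 21857 genes of the deposited tables, and 37 had enough counts to be tested. They were measured by bulk RNA sequencing in MV4;11, an acute myeloid leukemia line that carries FLT3-ITD and the MLL-AF4 fusion. The control group (n = 3 libraries) and the group given flavokawain A (FKA, a chalcone of the kava plant) at 10 µg/ml for 48 h (n = 3) shared the line, the FLT3-ITD MLL-AF4 genotype and the medium, RPMI1640 with 10% fetal bovine serum. The labels put replicate 1, 2 and 3 of both groups in batch 1, 2 and 3, and nothing in them says whether the libraries came from separate cultures, so p-values cover the spread between these libraries, which may be technical.

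Each pathway removes another kind of DNA damage. Mismatch repair excises copying errors that MutS proteins recognise and MutL proteins nick. In base excision repair a glycosylase cuts out 1 altered base, an endonuclease opens the strand, and a polymerase and a ligase close the gap with help from XRCC1 and the PARP enzymes. Nucleotide excision repair cuts out a short stretch around a bulky lesion, found across the genome or by a stalled RNA polymerase. End joining seals double-strand breaks without a template: Ku binds the ends, DNA-PK holds them and ligase IV joins them.

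Library totals ran from 29971171 to 36362421 counts. Of 13531 tested genes, 59.8% had an adjusted p under 0.05 in edgeR (quasi-likelihood, Benjamini-Hochberg over all tested genes), 29.3% higher and 30.5% lower with FKA. The myeloid genes SPI1, CD33 and FLT3 were present in all libraries (28.4 to 418 TMM-scaled CPM, counts scaled to a common library size with a correction for composition). Of the 7 myeloid genes listed, CSF1R (1.91 ± 0.307 to 23.2 ± 6.59 CPM, edgeR adjusted p = 9.46e-06) and CSF3R (59.6 ± 3.74 to 172 ± 10.3 CPM, edgeR adjusted p = 5.57e-06) rose with FKA, and the other 5 did not pass. The summed level of 5 mesenchymal genes, among them COL1A1 and FN1, was 51.5 and 47.9 CPM in FKA replicates 2 and 3, against 0.714 to 10.5 CPM in the other 4 libraries. The proliferation markers MKI67, TOP2A, PCNA and MCM2 summed to 845, 1787 and 1996 CPM in control replicates 1, 2 and 3 and to 126 to 160 CPM with FKA. The low sum of control replicate 1 came from MKI67 (242, 811 and 924 CPM in controls) and TOP2A (197, 590 and 606 CPM). PCNA (242, 243 and 281 CPM) and MCM2 (163, 142 and 186 CPM) varied much less between controls. The part of the mesenchymal or the proliferation difference in the values below was not tested. In bulk RNA, fewer cells of a kind and less RNA per cell cannot be told apart.

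Repair genes went in both directions, and 3 of the 4 pathways held rises as well as falls. Of the 37 tested genes, 8 rose, 16 fell and 13 did not pass, so that 64.9% were called, near the 59.8% of all genes. The median log2 fold change was -0.30, against 0.01 over all tested genes. NEIL3 fell 18.5-fold, UNG 4.63-fold and PRKDC 2.97-fold, whereas POLB and ERCC6 each rose 2.05-fold. The groups did not overlap in any of the 24 called genes, nor in 5 that were not called. All FKA libraries lay above all controls in 10 and below them in 19, against 33.7% and 33.6% of all tested genes (67.3% in either direction). With library totals as the only scaling, which raised the median of all genes by 0.16, 12 repair genes were higher and 13 lower, and the share of higher genes among all calls went from 48.9% to 60.3%. Without FKA replicates 2 and 3, 5 repair genes were higher and 10 lower, when 2020 and 2599 of all genes were. That fit has 1 FKA library, which is assumed to vary as the 3 controls do.

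**Figure D1:**
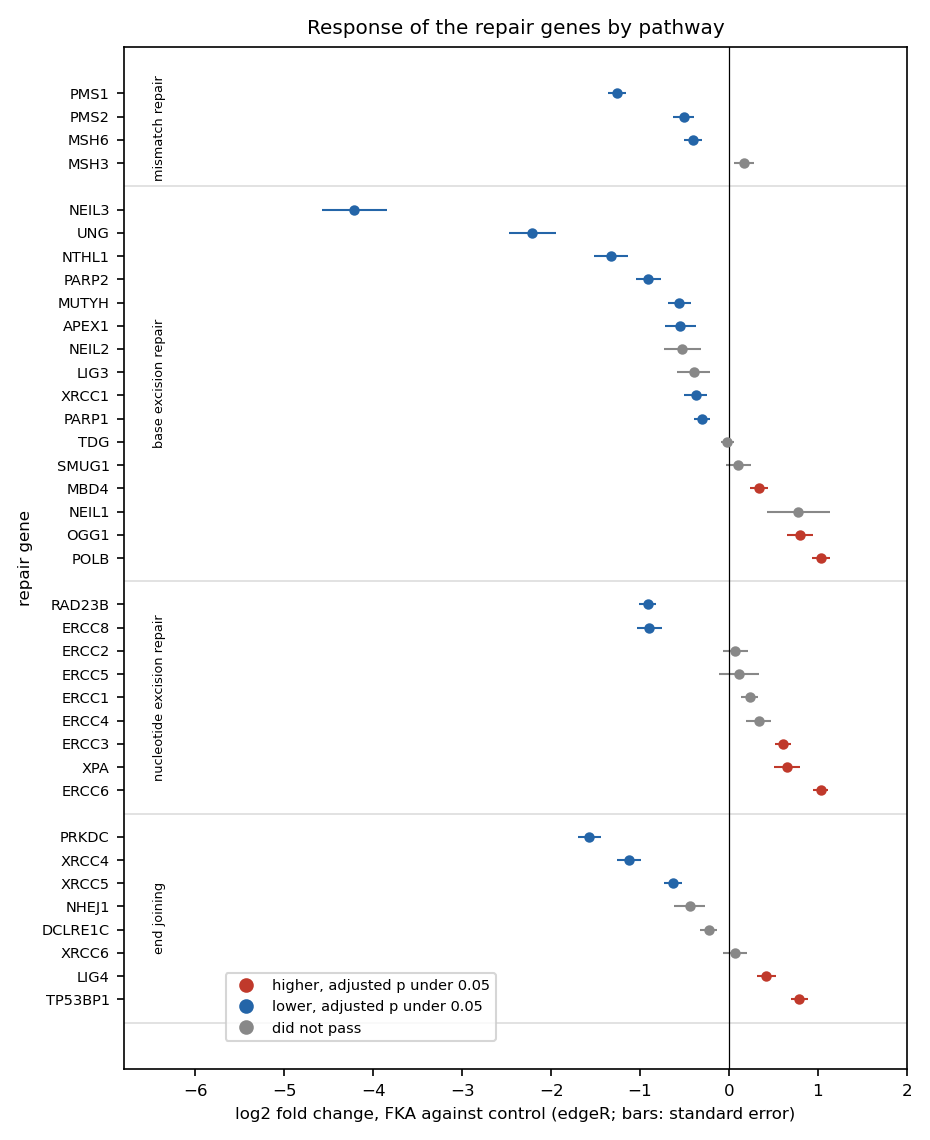
Fitted log2 fold change of each tested repair gene, FKA against control (x axis, 0 means no difference), grouped by pathway; points are edgeR estimates, bars are standard errors and colours give the call. NEIL3 (-4.21) lies far to the left of the rest, and every pathway but mismatch repair holds calls on both sides of 0.

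In mismatch repair, 3 of the 4 tested genes fell (75%) and none rose, with a median log2 fold change of -0.45. Of all tested genes 30.5% fell and 29.3% rose. PMS1, an alternative MutL subunit, stood at 55.7, 53.6 and 50.1 CPM in control replicates 1 to 3 and at 24.4, 20.4 and 21.8 CPM with FKA. All FKA libraries lay below all controls, a 2.39-fold fall (log2 fold change -1.26, SE 0.106, edgeR adjusted p = 2.44e-05). PMS2, the MutL subunit with the nicking activity, fell from 27.9 ± 1.7 to 19.7 ± 1.89 CPM (mean ± SD, n = 3; log2 fold change -0.51, edgeR adjusted p = 0.00499). PMS2 has 10 annotated pseudogenes by name, and reads from such copies may have been shared. MSH6, the MutS subunit for single-base mismatches, fell from 78.4 ± 9.36 to 59.4 ± 1.68 CPM (-0.40, edgeR adjusted p = 0.00862), a call that was lost on log2 FPKM values. MSH3, the MutS subunit for larger loops, held 29.1, 33.0 and 35.0 CPM in controls and 35.2, 39.4 and 34.8 CPM with FKA. These groups overlapped (0.17, SE 0.109, edgeR adjusted p = 0.203), though MSH3 passed as higher with library totals (0.33, edgeR adjusted p = 0.0368). MLH3, a MutL protein, had 0 to 5 counts in every library and was not tested.

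For MSH3 the start region is shown because it is the only gene here whose RefSeq promoter windows (GRCh38.p14, 250 bases before to 50 after a start) held 2 matches to an E2F-type motif. For PMS1 the stretch shared with its head-to-head neighbour ORMDL1 is shown, since both genes start there and moved in opposite directions. The MSH3 stretch is chr5:80654515-80654586 and the PMS1 stretch chr2:189784309-189784480, both on the plus strand, 5′ to 3′. Capitals mark the overlapping motif matches in MSH3 and the bases between both starts in PMS1.
MSH3: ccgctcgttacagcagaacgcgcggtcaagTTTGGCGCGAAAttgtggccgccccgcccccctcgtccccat
PMS1: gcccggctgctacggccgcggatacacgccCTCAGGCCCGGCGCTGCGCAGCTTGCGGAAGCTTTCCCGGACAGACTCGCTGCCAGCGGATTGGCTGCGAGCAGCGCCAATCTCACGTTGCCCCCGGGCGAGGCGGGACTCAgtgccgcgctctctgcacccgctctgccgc

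Among the 16 base excision genes, 3 rose (18.8%), 8 fell (50%) and 5 did not pass, against 29.3% higher and 30.5% lower of all tested genes. The glycosylases gave both the largest fall and a rise. NEIL3, which removes oxidised bases from single-stranded and cross-linked DNA, stood at 48.3, 77.4 and 90.6 CPM in control replicates 1 to 3 and at 1.99, 3.97 and 5.67 CPM with FKA. The lowest control exceeded the highest FKA library severalfold (log2 fold change -4.21, SE 0.362, edgeR adjusted p = 2.74e-05). The difference was -5.19 without FKA replicates 2 and 3 and -3.45 on log2(FPKM + 1) values. UNG, the main uracil glycosylase, stood at 64.9, 32.0 and 36.1 CPM in controls and 9.94, 7.97 and 10.8 CPM with FKA (-2.21, SE 0.265, edgeR adjusted p = 0.000149). Control replicate 1 was the highest library for UNG and the lowest control for NEIL3 and for MKI67, which had 242, 811 and 924 CPM in controls. NTHL1, a glycosylase of oxidised pyrimidines, held 9.75, 6.96 and 7.62 CPM in controls and 3.48, 3.13 and 3.11 CPM with FKA, again without overlap (-1.32, SE 0.192, edgeR adjusted p = 0.000419).

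The pair that handles oxidised guanine moved apart. OGG1, which removes oxidised guanine itself, rose from 12.9 ± 1.96 to 22.5 ± 2.31 CPM (log2 fold change 0.80, edgeR adjusted p = 0.0016), and MUTYH, which removes adenine placed opposite it, fell from 13.9 ± 0.711 to 9.46 ± 0.218 CPM (-0.56, edgeR adjusted p = 0.00497). MBD4, a glycosylase of mispaired thymine at CpG sites, rose slightly (0.34, edgeR adjusted p = 0.0173) and lost the call without control replicate 2 (0.25, edgeR adjusted p = 0.0651) and without FKA replicate 3 (0.28, edgeR adjusted p = 0.069). TDG, with the same substrate, was level at 115 ± 3.78 and 113 ± 3.17 CPM, a difference of -0.02 (SE 0.0769) that took the other sign with upper-quartile (0.05) or library-total scaling (0.14). SMUG1, a second uracil glycosylase, did not pass (0.10, SE 0.142, edgeR adjusted p = 0.545). NEIL2 (-0.52, edgeR adjusted p = 0.057) and NEIL1 (0.78, edgeR adjusted p = 0.0823) did not pass either, and NEIL1 rested on 12 to 25 counts per library. NEIL2 passed as lower with DESeq2 (-0.53, DESeq2 adjusted p = 0.0372) and with no filter (-0.56, edgeR adjusted p = 0.0376). It also did so without control replicate 2 (-0.64, edgeR adjusted p = 0.0486) or control replicate 3 (-0.66, edgeR adjusted p = 0.0412). NEIL1 passed as higher with library totals (0.94, edgeR adjusted p = 0.0455).

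The 250 bases before 1 annotated UNG start are shown because UNG fell most among the genes with a motif match. The stretch is chr12:109097922-109098171 (GRCh38.p14, plus strand, 5′ to 3′), and capitals mark the match. The NTHL1 stretch, chr16:2047804-2048015 on the minus strand, is shown because TSC2 starts at its other end and rose. Its capitals mark the bases between both starts.
UNG: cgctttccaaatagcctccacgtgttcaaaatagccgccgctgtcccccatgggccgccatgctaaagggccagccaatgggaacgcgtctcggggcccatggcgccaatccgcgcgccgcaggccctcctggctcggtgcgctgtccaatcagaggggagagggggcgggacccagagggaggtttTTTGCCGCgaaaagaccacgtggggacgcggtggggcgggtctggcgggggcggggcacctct
NTHL1: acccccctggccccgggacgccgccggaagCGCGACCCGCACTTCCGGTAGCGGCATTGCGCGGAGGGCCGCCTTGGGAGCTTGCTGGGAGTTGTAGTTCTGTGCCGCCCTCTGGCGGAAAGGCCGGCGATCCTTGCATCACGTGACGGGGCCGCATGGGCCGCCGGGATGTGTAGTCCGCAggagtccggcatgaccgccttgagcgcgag

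Downstream of the glycosylases, the gap-filling polymerase rose and most other steps were lower. POLB held 22.1, 23.2 and 23.1 CPM in control replicates 1 to 3 and 48.5, 48.5 and 43.2 CPM with FKA. The controls were nearly level and every FKA library was above them (log2 fold change 1.03, SE 0.0975, edgeR adjusted p = 4.38e-05). PARP2, a sensor of strand breaks, had 23.9, 31.0 and 33.7 CPM in controls and 15.6, 16.3 and 15.5 CPM with FKA (-0.91, SE 0.142, edgeR adjusted p = 0.00063). PARP1, the main break sensor, fell by 0.30 on the log2 scale (edgeR adjusted p = 0.0176), the AP endonuclease APEX1 by 0.54 (edgeR adjusted p = 0.0232) and the scaffold XRCC1 by 0.37 (edgeR adjusted p = 0.0297). These 3 calls were not firm: with library totals the values were -0.14, -0.38 and -0.22 (edgeR adjusted p = 0.17, 0.0627 and 0.204). PARP1 also lost its call without control replicate 3, FKA replicate 1 or FKA replicate 2 (edgeR adjusted p = 0.0585, 0.0595 and 0.0594), and APEX1 without control replicate 1, control replicate 3 or FKA replicate 2 (edgeR adjusted p = 0.064, 0.0533 and 0.0733). XRCC1 lost it without any 1 library other than control replicate 1 (edgeR adjusted p = 0.0609 to 0.0994). LIG3, the ligase bound to XRCC1, did not pass (-0.40, edgeR adjusted p = 0.0871), but did with the batch as a replicate block (-0.38, edgeR adjusted p = 0.0286).

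In nucleotide excision repair 3 of 9 genes rose (33.3%) and 2 fell (22.2%), near the 29.3% and 30.5% of all tested genes, with 4 not called and a median log2 fold change of 0.23. The pair of transcription-coupled repair factors moved in opposite directions. ERCC6, the remodeller that reads stalled polymerase, stood at 40.0, 38.6 and 38.6 CPM in control replicates 1 to 3 and at 76.6, 80.7 and 82.3 CPM with FKA (1.03, SE 0.0824, edgeR adjusted p = 1.85e-05). ERCC8, the receptor of the ubiquitin ligase that works with it, stood at 18.1, 15.03 and 16.1 CPM in controls and at 9.38, 8.19 and 8.92 CPM with FKA (-0.89, SE 0.138, edgeR adjusted p = 0.000586). Neither gene's groups overlapped.

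RAD23B, a ubiquitin-like protein of damage recognition in the genome-wide branch, was lower, with 191, 231 and 233 CPM in controls and 117, 113 and 117 CPM with FKA (-0.91, SE 0.0993, edgeR adjusted p = 8.86e-05). Both ERCC3, the TFIIH translocase (49.1 ± 2.79 to 74.8 ± 4.81 CPM; 0.61, edgeR adjusted p = 0.000503), and XPA, which binds the opened lesion (11.3 ± 1.63 to 17.8 ± 0.922 CPM; 0.65, edgeR adjusted p = 0.00403), rose. ERCC2, the helicase of TFIIH, did not pass (0.07, SE 0.138, edgeR adjusted p = 0.665). The nuclease genes ERCC1 (0.23, edgeR adjusted p = 0.0705), ERCC4 (0.33, edgeR adjusted p = 0.0667) and ERCC5 (0.11, edgeR adjusted p = 0.68) did not pass, although ERCC1 (0.39, edgeR adjusted p = 0.00726) and ERCC4 (0.49, edgeR adjusted p = 0.0207) did with library totals. Reads of ERCC5 are uncertain, since 63.2% of its exon bases in GENCODE release 29 also belong to the read-through gene BIVM-ERCC5. The same limit holds for ERCC8, which shares 28.3% of its exon bases with the same-strand GNL3LP1.

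The stretch shared by ERCC8 and its neighbour NDUFAF2 is shown because both fell. It is chr5:60945040-60945235 (GRCh38.p14, minus strand, 5′ to 3′), with capitals for the bases between both starts.
ERCC8: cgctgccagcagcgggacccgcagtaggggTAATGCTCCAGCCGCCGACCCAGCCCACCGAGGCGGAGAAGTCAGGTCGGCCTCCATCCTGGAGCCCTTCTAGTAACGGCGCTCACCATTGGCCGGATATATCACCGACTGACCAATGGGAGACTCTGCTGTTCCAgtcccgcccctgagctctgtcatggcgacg

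In end joining, 2 genes rose (25%), 3 fell (37.5%) and 3 did not pass, near the 29.3% and 30.5% of all tested genes. PRKDC, the catalytic subunit of DNA-PK, had the highest CPM of all the repair genes, 1383, 1198 and 1360 in control replicates 1 to 3, and fell to 459, 373 and 497 CPM with FKA. No FKA library came near a control (log2 fold change -1.57, SE 0.13, edgeR adjusted p = 2.29e-05). XRCC4, the partner that stabilises ligase IV, stood at 18.3, 22.6 and 19.1 CPM in controls and at 9.50, 9.00 and 9.06 CPM with FKA (-1.12, SE 0.134, edgeR adjusted p = 0.000147). LIG4, the ligase itself, rose from 49.7 ± 3.57 to 66.6 ± 6.91 CPM (0.42, edgeR adjusted p = 0.00755).

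TP53BP1, which shields ends from resection, showed the largest rise of this pathway, from 43.0, 40.1 and 44.4 CPM in controls to 67.5, 81.6 and 72.0 CPM with FKA (0.79, SE 0.1, edgeR adjusted p = 0.000192). The Ku subunits diverged: XRCC5 fell from 474 ± 34.9 to 307 ± 23.8 CPM (-0.62, edgeR adjusted p = 0.000756), while XRCC6 stood at 296 ± 50.8 and 311 ± 30.3 CPM and did not pass (0.07, SE 0.136, edgeR adjusted p = 0.667). XRCC6 has 5 annotated pseudogenes by name, which may share its reads. NHEJ1, which bridges the ligase complex (-0.44, edgeR adjusted p = 0.0548), and the nuclease DCLRE1C (-0.23, edgeR adjusted p = 0.0705) did not pass. NHEJ1 passed as lower with DESeq2 (-0.44, DESeq2 adjusted p = 0.0367) and with no filter (-0.48, edgeR adjusted p = 0.0324). It also did so without control replicate 2 (-0.57, edgeR adjusted p = 0.0308). NHEJ1 reads are uncertain, since 65.4% of its exon bases also belong to the same-strand AC068946.1.

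**Figure D2:**
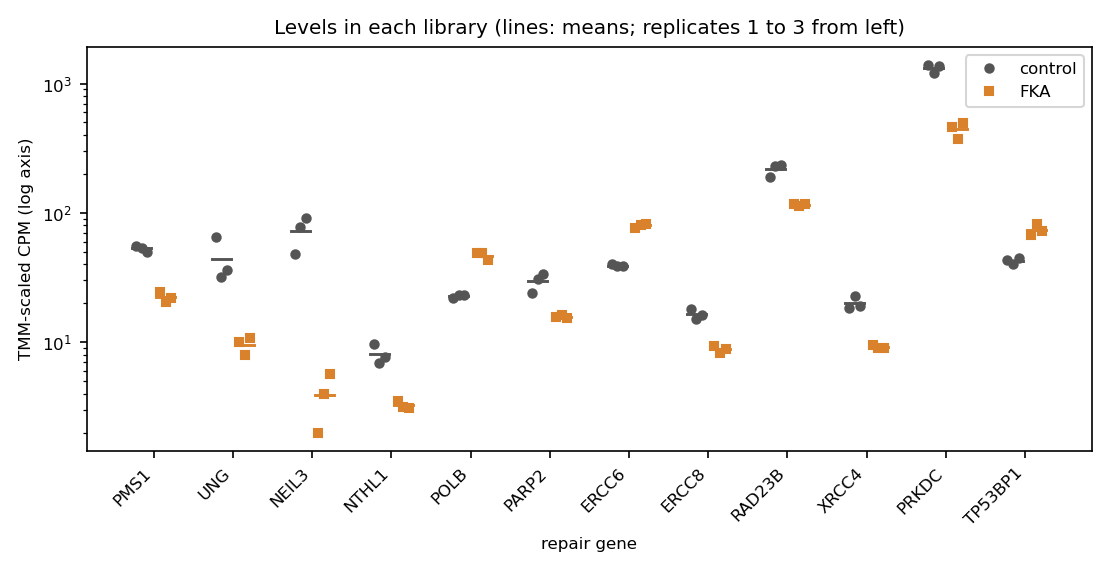
TMM-scaled CPM on a log axis in each control (circles) and FKA (squares) library for TP53BP1 and the called repair genes that moved by 0.8 or more on the log2 scale; lines are group means and replicates run 1 to 3 from left to right. The groups are separate in all genes drawn, from NTHL1 below 10 CPM to PRKDC at 1198 to 1383 CPM in controls.

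Genes whose products work as a complex or as alternatives were then set against each other within each library, as a ratio of deposited FPKM (reads scaled to library total and gene length), in 10 pairs. In 8 pairs the groups did not overlap, a count to be read against the 67.3% of single genes without overlap, and the pairs were chosen with earlier results of these data known. With 3 libraries a group an exact two-sided permutation test cannot go below p = 0.1, and each of these 8 gave that smallest value, or 0.125 after Benjamini-Hochberg adjustment over the 10 pairs. LIG4 to XRCC4 was 1.91, 1.75 and 1.84 in control replicates 1 to 3 and 5.18, 5.99 and 4.83 with FKA. ERCC6 to ERCC8 went from 0.774 ± 0.0582 to 2.94 ± 0.278, and XRCC5 to XRCC6 from 1.06 ± 0.19 to 0.64 ± 0.024 (mean ± SD, n = 3). In each of these pairs the share of 1 partner was higher in every FKA library than in every control.

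The same held for pairs of alternatives. UNG to SMUG1 was 7.79, 3.02 and 3.73 in controls and 0.939, 0.727 and 1.17 with FKA. MSH3 to MSH6 went from 0.449 ± 0.0812 to 0.66 ± 0.0608, PMS1 to PMS2 from 1.80 ± 0.148 to 1.07 ± 0.0847, and PARP1 to PARP2 from 7.47 ± 1.66 to 11.1 ± 0.621. NEIL3 to NEIL1 had the widest difference, -5.06 on the log2 scale, but rests on few NEIL1 counts. LIG3 to XRCC1 (exact permutation p = 0.9) and ERCC4 to ERCC1 (exact permutation p = 0.5) overlapped between groups, with log2 differences of -0.02 and 0.11. Without control replicate 1 the LIG3 to XRCC1 difference was 0.29. The lengths behind the deposited FPKM ran from 0.35 to 2.6 times the exon length in GENCODE release 29, with 30621 bases for ERCC6, so levels between genes depend on them, whereas differences between groups in a ratio do not.

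**Figure D3:**
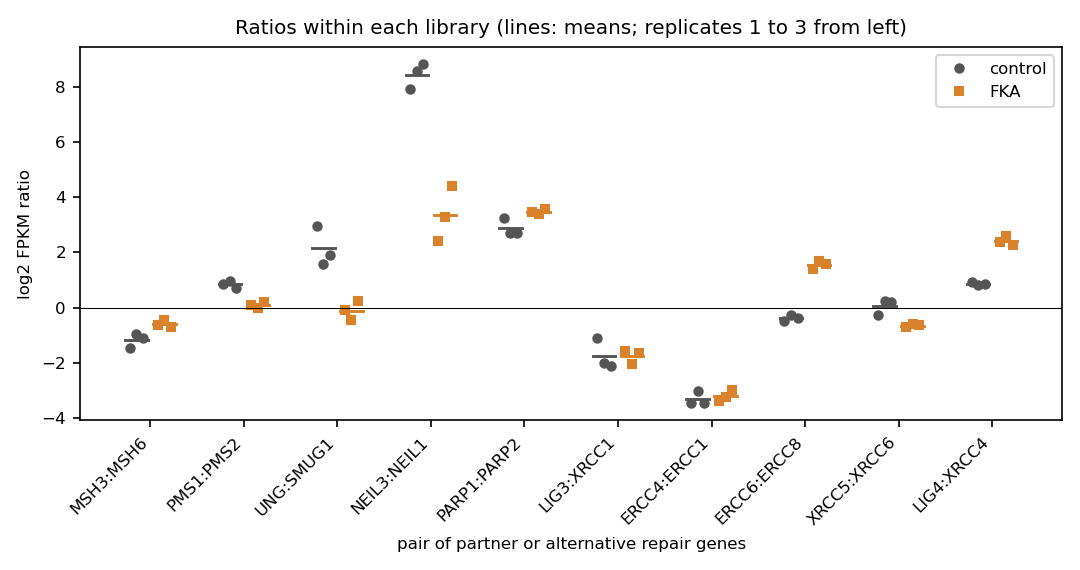
Log2 ratio of the deposited FPKM of 2 repair genes in each control (circles) and FKA (squares) library, for 10 pairs; lines are means and 0 means equal FPKM. The groups are apart in 8 pairs and overlap for LIG3:XRCC1 and ERCC4:ERCC1.

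Per length, the most abundant of these transcripts in controls belonged to APEX1 (162 FPKM), XRCC5 (133 FPKM), XRCC6 (128 FPKM) and PRKDC (92.2 FPKM), and the lowest tested level to NEIL1 (0.0806 FPKM). NEIL3, at 28.9 FPKM, ranked 8 in controls and stood at 1.73 FPKM with FKA. Summed over a pathway, end joining went from 380 ± 15.6 to 314 ± 22.2 FPKM, base excision repair from 411 ± 25.9 to 345 ± 22.3 FPKM and mismatch repair from 35.6 ± 0.666 to 29.5 ± 0.555 FPKM (mean ± SD, n = 3). Nucleotide excision repair stood at 92.0 ± 4.74 and 93.5 ± 3.94 FPKM. These sums are carried by the few abundant genes of each pathway and were not tested.

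Other genes of the same pathways gave the setting of these values. Of 60 tested partners, 11 rose (18.3%), 33 fell (55%) and 16 did not pass, with a median log2 fold change of -0.46. Over all tested genes 29.3% rose and 30.5% fell, with a median of 0.01. In mismatch repair 14 of 15 partners fell (93.3%), among them the exonuclease EXO1 (-7.00) and the clamp loader subunits RFC3 (-3.15) and RFC4 (-2.06). The polymerase delta subunit POLD4 rose (1.09). Apart from EXO1 this list holds PCNA, also a proliferation marker above, RFC, RPA and polymerase delta subunits, and LIG1. These also serve DNA replication, so the count is not particular to mismatch repair. In base excision repair 4 of 11 rose (36.4%) and 3 fell (27.3%), near the shares over all tested genes. Those that rose include HMCES, which shields abasic sites (0.82), and the alkyl-base glycosylase MPG (0.33), and the flap nuclease FEN1 (-2.94), PARP3 (-1.37) and TDP1 (-0.76) fell. PARP3 thus fell with PARP2, and with PARP1, whose call was not firm.

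In nucleotide excision repair 2 of 16 partners rose (12.5%) and 6 fell (37.5%), against 29.3% and 30.5% of all tested genes. Polymerase epsilon (POLE, -2.20) and the ultraviolet damage sensor DDB2 (-0.68) fell, and MNAT1, a subunit of the TFIIH kinase module (0.72), and the XPA-binding XAB2 (0.53) rose. In end joining 4 of 18 rose (22.2%) and 10 fell (55.6%), beside the same shares of all tested genes. POLQ, the polymerase of the alternative end-joining route (-4.55), and RIF1 (-1.07) and MAD2L2 (-1.23), which act after TP53BP1, fell. The ubiquitin ligase RNF168, which lays down the mark TP53BP1 reads (0.54), the kinase ATM (0.38) and APLF (1.00) rose.

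Several repair genes share their start region with a gene on the other strand. For 12 of them the neighbour, starting within 1000 bases, was tested too. In 7 pairs both genes were called, 5 in the same direction. Among all 1272 tested pairs of this kind in the RefSeq table, both genes were called in 440 (34.6%), and 289 of those (65.7%) went in the same direction. PRKDC fell with the helicase gene MCM4 (-3.77), ERCC8 with NDUFAF2 (-2.09), PMS2 with AIMP2 (-1.64) and MUTYH with TOE1 (-0.88), and LIG4 rose with ABHD13 (0.62). The other two moved apart. PMS1 fell while ORMDL1, starting 111 bases away, rose (0.67, SE 0.107, edgeR adjusted p = 0.000678). NTHL1 fell while TSC2, 151 bases away, rose (0.72, SE 0.0866, edgeR adjusted p = 0.000153). XRCC4 fell next to TMEM167A, which did not pass (0.18, edgeR adjusted p = 0.0981). The use of strand in counting is not given in the sources used here, so reads where both genes of a pair overlap cannot be told apart, and 16.5% of the NTHL1 exon bases and 14.1% of those of MUTYH overlap an exon of the opposite strand. In all, 10 repair genes have such an overlap with 1 opposite-strand gene over at least 10% of their exon bases in GENCODE release 29. The largest are those of LIG3 (29.1%), TP53BP1 (28.7%), ERCC1 (28.6%), NEIL1 (26.4%), ERCC4 (25.7%) and OGG1 (25.0%), followed by MSH6 (16.2%) and XRCC1 (15.5%), so the rises of TP53BP1 and OGG1 carry the same doubt.

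**Figure D4:**
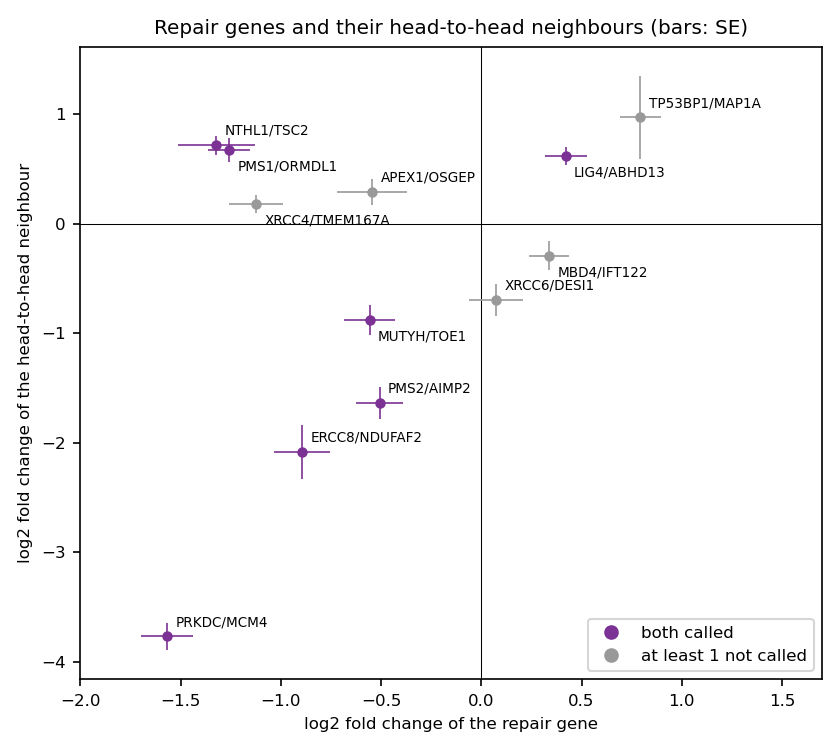
Log2 fold change of a repair gene (x axis) against that of its head-to-head neighbour (y axis), with standard errors, for the 12 pairs in which both were tested. PMS1/ORMDL1 and NTHL1/TSC2 are the called pairs in the upper left, where the repair gene fell and the neighbour rose.

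The promoter windows were searched on both strands for TTTCCCGC, TTTCGCGC, TTTGCCGC and TTTGGCGC, forms of the E2F motif that can overlap one another. RefSeq windows were matched for 33 of the 38 genes, leaving out SMUG1, NEIL2, POLB, XRCC5 and PRKDC. A match was found for 5 genes (15.2%), MSH3, MSH6, PMS2, UNG and XRCC6, against 3.99% of all 27305 genes and 6.77% of tested genes, where any window of a gene counted, and 3.31% of all windows. Of the 5, UNG, MSH6 and PMS2 fell and MSH3 and XRCC6 did not pass. NEIL3, PMS1, NTHL1 and XRCC4, which fell at least 2-fold, held no such letters in these windows.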

How the data were processed

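The authors deposited whole-number read counts and FPKM per gene for 6 libraries. FPKM equalled count over column total and 1 length per gene (largest relative deviation 6.9e-07). Per the submitters' processing notes the builds are GRCm38 and mm10, which are mouse builds, while the symbols are human. For the aligner, the counting tool and strand use, nothing is given in the sources used here. Counts were tested in R 4.3.3 with edgeR 4.0.16: filterByExpr (13531 genes kept), TMM scaling, a quasi-likelihood test between the groups, Benjamini-Hochberg over all kept genes, call at 0.05. CPM used TMM-scaled totals. On simulated counts in 13340 genes it recovered 20 of 48 genes changed 1.5-fold, 42 of 50 changed 2-fold and 49 of 49 changed 4-fold, and called 2 of 13144 unchanged genes. Few genes were changed there, in random directions, whereas 59.8% of genes were called in the data. These rates therefore do not carry over to this comparison, and the simulation does not check the scaling. Alternatives were DESeq2 1.42.0, other scalings and filters, limma 3.58.1 on log2 FPKM, the batch as block, and left-out libraries.

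The batch label equals the replicate number and pairs the libraries; deviations from the group means correlated by 0.05, 0.34 and -0.08 in batches 1 to 3. Replicates of a group differed by more than sampling noise, with chi-square values of 23.1 to 70.6 times their degrees of freedom. The members, the partner list and the pairs were chosen with earlier results of these data known. Values per library are given for called members at 0.8 or more on the log2 scale and for the largest rise and fall of a pathway. Partners named are up to 3 called per direction and pathway; some are not reported here. Promoter sequences are from RefSeq (GRCh38.p14), head-to-head neighbours from that table or, for genes without a window, from GENCODE release 29.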

Additional observations from a re-analysis of the deposited data

How the results depend on the processing

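Of the 24 called repair genes, 19 kept their call in all 16 alternatives other than the removal of FKA replicates 2 and 3 together, among them NEIL3, UNG, PRKDC, POLB and ERCC6, and APEX1, MBD4, MSH6, PARP1 and XRCC1 lost it in at least 1. With the batch as a replicate block, 8 repair genes were higher and 17 lower, and LIG3 (-0.38) was the repair gene whose call changed. Library totals, and FPKM, which is scaled by totals, gave 1 higher mismatch gene, 5 higher nucleotide excision genes and 5 lower base excision genes, in place of 0, 3 and 8; upper-quartile factors gave 5 higher nucleotide excision genes. Leaving out 1 library gave 5 to 8 lower base excision genes, with 5 without FKA replicate 2. Without FKA replicates 2 and 3, chosen after seeing the data and with the lone FKA library assumed to vary like the controls, there were 5 higher and 10 lower repair genes. By pathway, 1 base excision and 1 end joining gene were higher, and 1 mismatch and 4 base excision genes were lower; NEIL3 stood at -5.19. Of partners 4 were then higher, and of all genes 2020 were higher and 2599 lower. The cause of these moves was not tested, beyond the fewer libraries. TDG took a positive sign with upper-quartile factors (0.0526), library totals (0.14), when genes had to reach 1 CPM in 3 libraries (0.00817), FPKM (0.14) and without FKA replicates 2 and 3 (0.00285). Leaving out 1 library ranged from -0.0511 to 0.0087 for TDG, -0.0365 to 0.22 for ERCC2, -0.0861 to 0.26 for ERCC5, -0.0454 to 0.20 for XRCC6 and -0.20 to 0.29 for the log2 ratio of LIG3 to XRCC1. At this depth few counts limit NEIL1 and MLH3.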

Other observations

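Repair genes outside the 4 pathways were looked at in a list of 16 drawn up after the files were available. Of these, 1 rose (6.25%), 10 fell (62.5%) and 5 did not pass, against 29.3% higher and 30.5% lower of all tested genes. Both direct-reversal dioxygenases fell: ALKBH2 went from 20.8 ± 8.05 to 4.40 ± 1.69 CPM (log2 fold change -2.24, edgeR adjusted p = 0.000434) and ALKBH3 from 20.3 ± 0.726 to 9.09 ± 1.22 CPM (-1.16, edgeR adjusted p = 0.00015). Like UNG, ALKBH2 was highest in control replicate 1, with 30.1, 16.4 and 15.9 CPM in control replicates 1 to 3. DUT, which keeps uracil out of the nucleotide pool by destroying dUTP, fell as well (-1.90). Among genes that mark PCNA for damage bypass, the ligase RAD18 (-1.39) and the deubiquitinase USP1 (-1.70) fell. The bypass polymerase POLI rose from 33.2 ± 4.89 to 62.1 ± 6.61 CPM (0.90, edgeR adjusted p = 0.000406), and REV3L fell (-0.49, edgeR adjusted p = 0.00114).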
